A study of Mus musculus with 5 samples.

Results

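Insulin-like growth factor (IGF) and insulin signalling was followed through 10 genes: the ligand Igf1, the receptors Igf1r and Insr, the receptor adaptors Irs1 and Irs2, and the binding proteins Igfbp2 to Igfbp6. They were listed by name and role; no measured value enters the rule, although earlier results of these data were known when it was written. The arrays carry 21 features for 9 of them, out of 44290 features in all, and 8 could be tested among 28035 genes and unnamed features. No feature is paired with the symbol Irs2, which was therefore not analysed here. RNA came from the hippocampal pyramidal layer of CD1 mouse pups on postnatal day 3, cut out by laser microdissection. Both groups were handled alike: the dams were injected under the skin 2 times a day from gestational day 8 to 19, with cocaine hydrochloride at 20 mg/kg in one group and with the saline vehicle alone in the other, and were pair-fed. Each of 5 two-colour arrays compared cocaine (channel 1) with saline (channel 2), always in the same dyes, so dye and treatment cannot be told apart. The labels do not say that the arrays came from separate litters, so the p-values speak of array-to-array spread alone, and that spread may be technical. The labels call the data preliminary.

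Insulin-like growth factors bind Igf1r, a receptor tyrosine kinase closely related to the insulin receptor Insr. The active receptor phosphorylates the docking proteins Irs1 and Irs2, which pass the signal to phosphatidylinositol 3-kinase, Akt and mTOR, and so promote growth and survival of young neurons. Secreted binding proteins hold the growth factors outside the cell and set how much ligand reaches the receptor; Igfbp2 is a major binding protein of the developing brain.

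The values are log2 ratios between the channels. Their direction is not stated in the labels; the order of the channels and the way the paper writes its own ratios make cocaine over saline likely, and "higher" below means a higher ratio in that sense. Exact zeros, 10.8% to 47.7% of features per array, and the ceiling value of 16.61 were taken as not measured, and each array was then set relative to its own median, which lay between -2.68 and 0.26. A value of 0 therefore means the ratio of the middle feature of that array and not an equal amount of RNA. No intensities were used here, so the level of a gene in the tissue is unknown, and fewer cells of a type cannot be told apart from less RNA per cell. As ratios, none of the 9 tested markers of pyramidal neurons passed the test and their median was 0.40. In limma, 2 of the 9 had an unadjusted p under 0.05, beside 23.8% of all genes tested.

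Of the 8 genes tested, 1 was higher at a Benjamini-Hochberg adjusted p under 0.05 in limma, the binding protein Igfbp2, and 0 were lower. Among all 28035 genes tested, 5.89% were higher and 1.16% lower at the same threshold. The same 1 of 8 had an unadjusted p under 0.05, a limit passed by 23.8% of all genes. The ratio was above 0 on every array measured for 1 gene (Igfbp2, against 15.4% of all genes) and below 0 on every array measured for 1 gene (Igf1r, against 15.6%). These shares of 8 are too coarse to set the group apart from the background. The median of the 8 mean log2 ratios was 0.23, beside -0.14 over all genes tested. Ordered by mean ratio, the genes ran from Igfbp2 (2.62) through Igfbp5, Insr, Igfbp6, Igfbp3, Irs1 and Igfbp4 to Igf1r (-0.91). The 95% interval of Igfbp2 began at 1.62, just above the highest end of the 7 others at 1.60, whereas those 7 overlapped one another. This is a description only, since Igfbp2 was singled out as the highest of the 8.

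**Figure D1:**
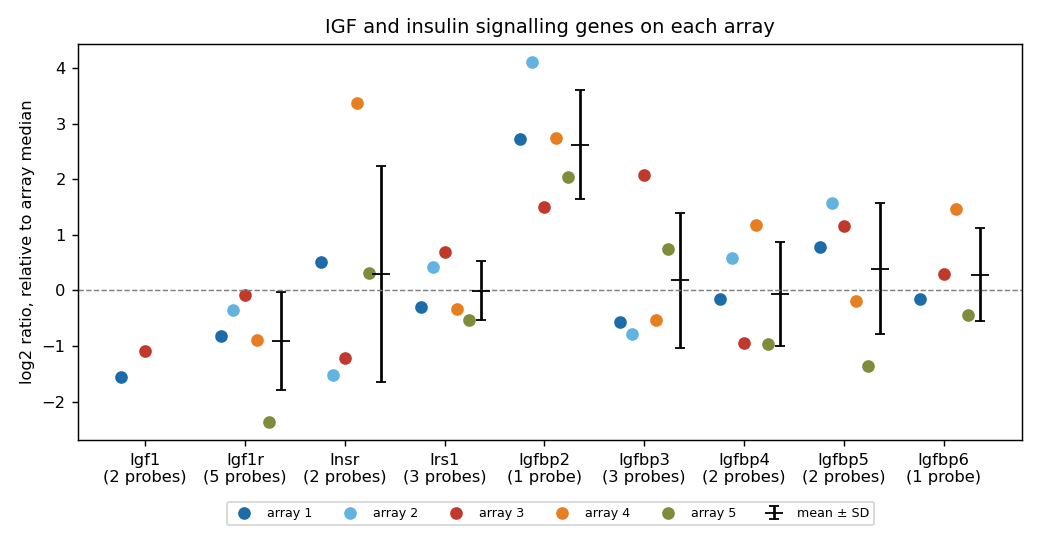
Log2 ratio of cocaine with saline (y axis, relative to the array median) for the 9 genes with a probe; points are the 5 arrays and bars are mean ± SD for genes on 3 or more arrays. Igfbp2 lies above 0 on every array, between 1.49 and 4.11, a direction that turns when Actb is set to 0, and Igf1r lies below 0 on every array, a direction that turns when Gapdh is set to 0. The median of all genes is -2.90 with Actb at 0 and 1.23 with Gapdh at 0.

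The sequence upstream of the start of transcription is shown for the genes on which these results turn: Igfbp2, the one that passed the test, Igfbp5, its neighbour on the same chromosome, which runs on the opposite strand and did not pass, and Igf1r, below 0 on every array. Each stretch is 300 bases long, ends shortly after the start, and is taken from RefSeq (mouse build GRCm38.p6) and is written 5′ to 3′ on the strand of the gene. Capitals mark the GC box, GGGCGG or its reverse complement CCGCCC, searched on both strands.
Igfbp2 (the first of 2 listed starts), chr1:72824230-72824529, plus strand: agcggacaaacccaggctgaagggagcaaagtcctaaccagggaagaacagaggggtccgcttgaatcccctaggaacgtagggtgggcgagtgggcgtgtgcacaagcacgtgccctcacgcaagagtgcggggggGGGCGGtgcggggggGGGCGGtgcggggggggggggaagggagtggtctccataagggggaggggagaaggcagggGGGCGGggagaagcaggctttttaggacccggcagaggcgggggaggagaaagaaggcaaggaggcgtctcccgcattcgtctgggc
Igfbp5, chr1:72874816-72875115, minus strand: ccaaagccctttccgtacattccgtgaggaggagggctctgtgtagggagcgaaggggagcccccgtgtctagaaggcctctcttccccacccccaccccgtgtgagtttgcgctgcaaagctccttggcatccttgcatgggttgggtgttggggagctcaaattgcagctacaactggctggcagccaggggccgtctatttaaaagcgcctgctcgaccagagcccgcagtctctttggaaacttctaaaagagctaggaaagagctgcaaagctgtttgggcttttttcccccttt
Igf1r, chr7:67952007-67952306, plus strand: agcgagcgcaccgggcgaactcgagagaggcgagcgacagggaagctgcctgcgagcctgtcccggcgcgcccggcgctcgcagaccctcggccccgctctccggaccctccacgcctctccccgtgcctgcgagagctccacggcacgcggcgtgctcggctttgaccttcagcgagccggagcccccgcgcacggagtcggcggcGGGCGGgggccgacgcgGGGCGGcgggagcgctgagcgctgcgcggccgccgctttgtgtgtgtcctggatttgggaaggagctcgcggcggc
The Igfbp2 stretch shown holds 3 GC boxes, that of Igf1r 2 and that of Igfbp5 0, and 35.7% of 32851 RefSeq promoter stretches of the same length hold at least 1. CpG dinucleotides numbered 18 in the Igfbp2 stretch shown, 10 in Igfbp5 and 48 in Igf1r, beside a median of 7. The stretch at the second Igfbp2 start, chr1:72825137-72825436 on the plus strand, holds 0 GC boxes and 14 CpG dinucleotides. These matches describe the letters only and were not set against the ratios.

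Igf1, the growth factor itself, was measured poorly. Of its 10 probe values (2 probes on 5 arrays) 7 were exact zeros. The log2 ratio, averaged over the probes measured, was -1.56 on array 1 and -1.09 on array 3. Both values lie below the array median, but a gene on 2 arrays was not tested, and an exact sign-flip test over 2 arrays cannot go below p = 0.5. A pair of related ligands outside the 10 genes were on all 5 arrays. Ins2, an insulin gene, gave 2.65, 4.71, 1.90, 2.10 and 1.67 on arrays 1 to 5. It passed the test at a mean log2 ratio of 2.61 ± 1.23 (SD, n = 5; limma adjusted p = 0.0129), with both probes above 0 on every array. The fetal growth factor Igf2, named here because it is the other ligand of Igf1r and not by the naming rule, gave 0.52, 3.31, 0.15, 2.29 and 0.94. It was above 0 on 5 of 5 arrays, with a mean of 1.44 ± 1.32 (SD, n = 5), and did not pass (limma adjusted p = 0.105).

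Igf1r, the receptor for both growth factors, had log2 ratios of -0.83, -0.36, -0.090, -0.89 and -2.37 on arrays 1 to 5. All 5 lie below the array median, with array 5 farthest and array 3 close to 0. The mean was -0.91 ± 0.88 (SD, n = 5), a fold of 0.533 with a 95% interval of 0.270 to 1.05. It did not pass the test (limma adjusted p = 0.25), and an exact permutation of signs over the arrays (two-sided) had p = 0.0625, the smallest that 5 arrays allow. The mean became 0.17 with Gapdh set to 0, -0.54 without array 5, -0.41 with exact zeros kept and -0.38 with small whole-number ratios left out. In the same order the median of all genes was 1.23, -0.077, -0.14 and 1.37, beside -0.14 as reported. Igf1r was lower past the threshold without centring (-2.12), on ribosomal protein genes (-2.95) and with Actb at 0 (-3.57). Under these settings in turn the median of all genes was -1.52, -2.23 and -2.90. Of all genes 29.2%, 70.1% and 86.8% were called there, nearly all lower.

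The 5 Igf1r probes did not go the same way. The probe for AK044980 read -0.78, 0.079, -1.63, -3.92 and -4.26, which is below 0 on all arrays but array 2. Tested by itself it was lower (mean -2.10, limma adjusted p = 0.042), as 1.32% of single probes were, and it was the one lower call among 17 tested probes of 8 genes. The probe for NM_010513, the RefSeq transcript, read 0.60, 1.79, 0.87 and 1.78 on arrays 1 to 4 and was not measured on array 5. It therefore lay above 0 wherever it was measured (mean 1.26, limma adjusted p = 0.17), and above the AK044980 probe on 4 of 4 arrays, by 1.38 to 5.70. Means of the other 3 probes, AK086316, AK087668 and AK040698, were -0.997, -0.19 and -1.20 on 3 arrays each. With RefSeq-accession probes alone, an alternative chosen after seeing the data, the Igf1r mean is thus 1.26 in place of -0.91.

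Insr, the insulin receptor, gave 0.51, -1.52, -1.21, 3.36 and 0.32. The values spread on both sides of 0, and array 4 stands far above the others. Its mean was 0.29 ± 1.94 (SD, n = 5; limma adjusted p = 0.81), and it was -0.48 without array 4. For the RefSeq probe of Insr 4 of its 5 values were ratios of small whole numbers. Igf2r, which clears Igf2 from the cell surface, had a mean of 0.48 (limma adjusted p = 0.60).

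Irs1, the adaptor that couples both receptors to phosphatidylinositol 3-kinase, gave -0.29, 0.43, 0.69, -0.34 and -0.53. Of the 8 genes tested its mean lay closest to 0, at -0.0072 ± 0.53 (SD, n = 5; limma adjusted p = 0.99; 95% interval -0.92 to 0.91). The interval leaves room for nearly a doubling or halving. Of its 15 probe values 2 stood at the ceiling, 1 on array 4 and 1 on array 5, and were left out; with zeros and ceiling values kept, the mean became 2.16.

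Igfbp2 was the gene with the highest ratio. Its 1 probe, for NM_008342, was measured on every array, at 2.72, 4.11, 1.49, 2.74 and 2.05 relative to the array median. Array 2 was highest and array 3 lowest, and all 5 exceed every value of Igf1r, Irs1 and Igfbp4. The mean was 2.62 ± 0.98 (SD, n = 5), a fold of 6.16 with a 95% interval of 3.07 to 12.4 (limma adjusted p = 0.0125). It ranked 239 of 28035 genes from the top. Exact permutation of the signs (two-sided) had p = 0.0625, again the smallest possible. As a single probe it was 1 of 17 tested to pass in the higher direction, where 6.36% of all single probes did.

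As deposited, before any centring, Igfbp2 read 0.043, 1.585, 1.12, 1.96 and 2.31. Values above 0 on all 5 arrays were possible only for genes measured on all 5, 11731 of 28035 and 7 of the 8. All 5 values of Igfbp2 are above 0, which held for 1 of the 8 genes and for 519 genes in all (1.85% of the 28035). One of its 5 values was the ratio of 2 whole numbers up to 30, whereas 49 of the 78 measured probe values of the 9 genes were (62.8%), and 34.0% to 86.7% of the measured features per array. Relative to the median of the other 7 tested genes on the same array, Igfbp2 was higher by 2.88, 4.07, 1.20, 2.94 and 2.57. The gap was above 0 on 5 of 5 arrays and averaged 2.73 ± 1.03 (SD, n = 5), a description only, since Igfbp2 was singled out as the highest of the 8.

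Against genes of the housekeeping kind the answer depended on which was taken. Actb, which encodes cytoplasmic actin, was itself high, at 3.39, 4.45, 1.93, 1.69 and 1.84 (mean 2.66, limma adjusted p = 0.0127). Igfbp2 minus Actb was -0.67, -0.34, -0.43, 1.04 and 0.21. It lay above 0 on 2 of 5 arrays, with a mean of -0.037 ± 0.69 (SD, n = 5; exact sign-flip p = 0.94). The median of 72 ribosomal protein genes was 2.31, 3.82, 1.30, 1.09 and 1.69, and Igfbp2 exceeded it on each array, by 0.41, 0.29, 0.19, 1.65 and 0.36. Centred on those genes Igfbp2 averaged 0.58 and did not pass (limma adjusted p = 0.41). Gapdh, a glycolytic enzyme, was at -2.94, -1.48, -0.63 and 0.74 on arrays 1, 2, 3 and 5 (limma adjusted p = 0.29), and Igfbp2 lay above it on 4 of 4 arrays. Of the 4 measured Gapdh values 3 were ratios of small whole numbers, beside 1 of 5 for Actb, so Gapdh is a weak reference here.

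**Figure D2:**
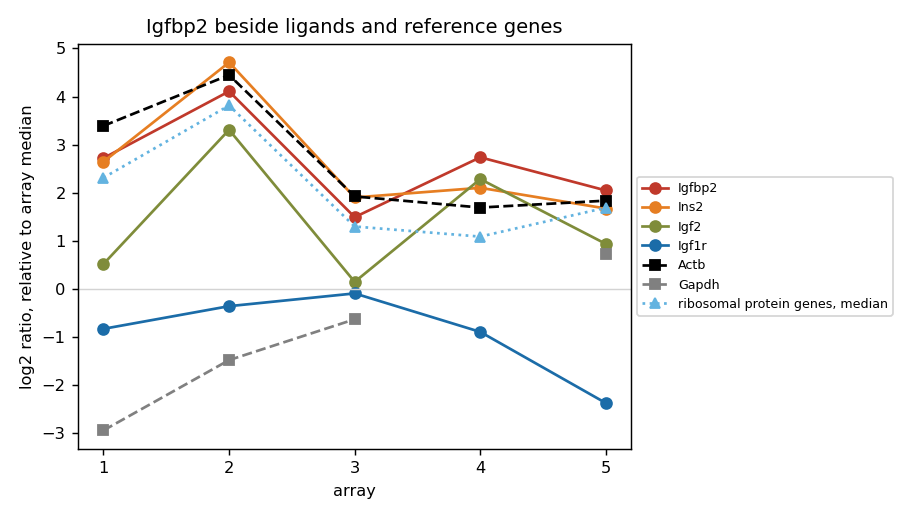
Log2 ratio relative to the array median (y axis) of Igfbp2, Ins2, Igf2, Igf1r, the reference genes Actb and Gapdh and the median of 72 ribosomal protein genes on the 5 arrays (x axis; lines only join the points of one gene). Igfbp2 stays within 1.04 of Actb on every array, and Igf1r lies below 0 on all 5, a direction that turns with Gapdh at 0. The median of all genes is 1.23 with Gapdh at 0.

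The profile of Igfbp2 over the arrays was shared by other genes. Among 9139 named genes measured on all 5 arrays, the nearest by Euclidean distance were Atp6v0b, a subunit of the vacuolar proton pump (distance 0.68), Eif3k, a translation initiation factor subunit (0.85), and Mib2, a ubiquitin ligase (0.86). Ins2 was the 17th nearest. This search was added after its values were seen. The same search, set by the naming rule, gave Insig2 (distance 0.30), E130308A19Rik (0.53) and Slf2 (0.55) as nearest to Igf1r. Insig2, an endoplasmic reticulum protein that restrains sterol synthesis, read -0.68, -0.33, -0.21, -0.95 and -2.58. For Insr the nearest were the olfactory receptor Olfr611 (0.88), Lamtor5 (1.48) and Cd226 (1.52), all at larger distances. These are likenesses over 5 arrays of a shared series and were not tested.

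Igfbp2 is also known from astrocytes, meninges and choroid plexus. Markers of those cells are given beside it, with the lists of other cells that moved most. Over all genes tested in limma, 5.89% were higher and 1.16% lower at an adjusted p under 0.05, and 23.8% had an unadjusted p under 0.05. Of 7 astrocyte markers tested 0 passed in limma, 3 had an unadjusted p under 0.05 (S100b had the smallest adjusted p, 0.052), 6 were above 0, and the list median was 0.44, with array medians from 0.15 to 1.34. Of 7 interneuron markers 0 passed, 4 had an unadjusted p under 0.05, 6 were above 0, and the list median was 1.37, with array medians from 0.12 to 2.90. The interneuron, astrocyte, pyramidal, meninges and choroid plexus, and blood lists all had their highest array median on array 2. Other marker lists did not. Igfbp2, Actb and the median of the ribosomal protein genes were highest on array 2 as well. Of 7 markers of meninges and choroid plexus 1 was lower, the collagen gene Col1a2 (mean -1.86, limma adjusted p = 0.030). The other collagen gene, Col1a1, averaged 0.60 (limma adjusted p = 0.46), and 2 of the 7 means were above 0. The list median was -0.51, with array medians from -2.44 to 0.59. The choroid plexus markers in it did not go one way: Ttr averaged 1.31 (limma adjusted p = 0.15), Folr1 -0.86 (0.36) and Kl -0.51 (0.60). Of 3 blood markers 2 were higher, the near-identical globin genes Hba-a1 and Hba-a2 (mean 3.26 each, limma adjusted p = 0.0122). Whether their probes can tell them apart was not checked. The third, Alas2, averaged -0.77 on 4 arrays and did not pass (limma adjusted p = 0.53). The part of these cells in the Igfbp2 ratio was not tested.

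The other binding proteins did not pass. Igfbp5, which binds matrix as well as growth factor, gave 0.79, 1.57, 1.15, -0.20 and -1.36. Arrays 1 to 3 lie above 0 and arrays 4 and 5 below (mean 0.39 ± 1.18, SD, n = 5; limma adjusted p = 0.67). Igfbp2 exceeded Igfbp5 on 5 of 5 arrays, by 2.23 ± 1.19 on average (SD, n = 5), again as a description. The Igfbp5 probes, both for NM_010518, read apart. Feature 12832 gave 1.41, 1.37, 2.93, 0.66 and 1.24, all above 0 (mean 1.52, limma adjusted p = 0.067). Feature 1887 gave 0.16, 1.77, -0.63, -1.06 and -3.96, and lay lower on 4 of 5 arrays. The difference between them ranged from -0.40 to 5.20.

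Igfbp4, an inhibitory binding protein cut by the protease Pappa, gave -0.15, 0.58, -0.95, 1.17 and -0.96. No direction was shared by the arrays (mean -0.061 ± 0.94, SD, n = 5; limma adjusted p = 0.95). Here too both probes are for one transcript, NM_010517, with means of -0.84 and 0.76, and feature 17692 was higher than feature 7596 on 4 of 4 arrays, by 0.39 to 4.08.

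Igfbp3, the main carrier of these growth factors in blood, gave -0.56, -0.78, 2.07, -0.54 and 0.74. Array 3 alone stands above 1 (mean 0.18 ± 1.21, SD, n = 5; limma adjusted p = 0.86), and the mean without it was -0.29. Igfbp6, which prefers Igf2 as its ligand, gave -0.16, 0.29, 1.46 and -0.44 on arrays 1, 3, 4 and 5 and was not measured on array 2. It lay on both sides of 0 (mean 0.29 ± 0.84, SD, n = 4; limma adjusted p = 0.78). For these 4 binding proteins the intervals are wide; that of Igfbp5 ran from -0.67 to 1.45.

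**Figure D3:**
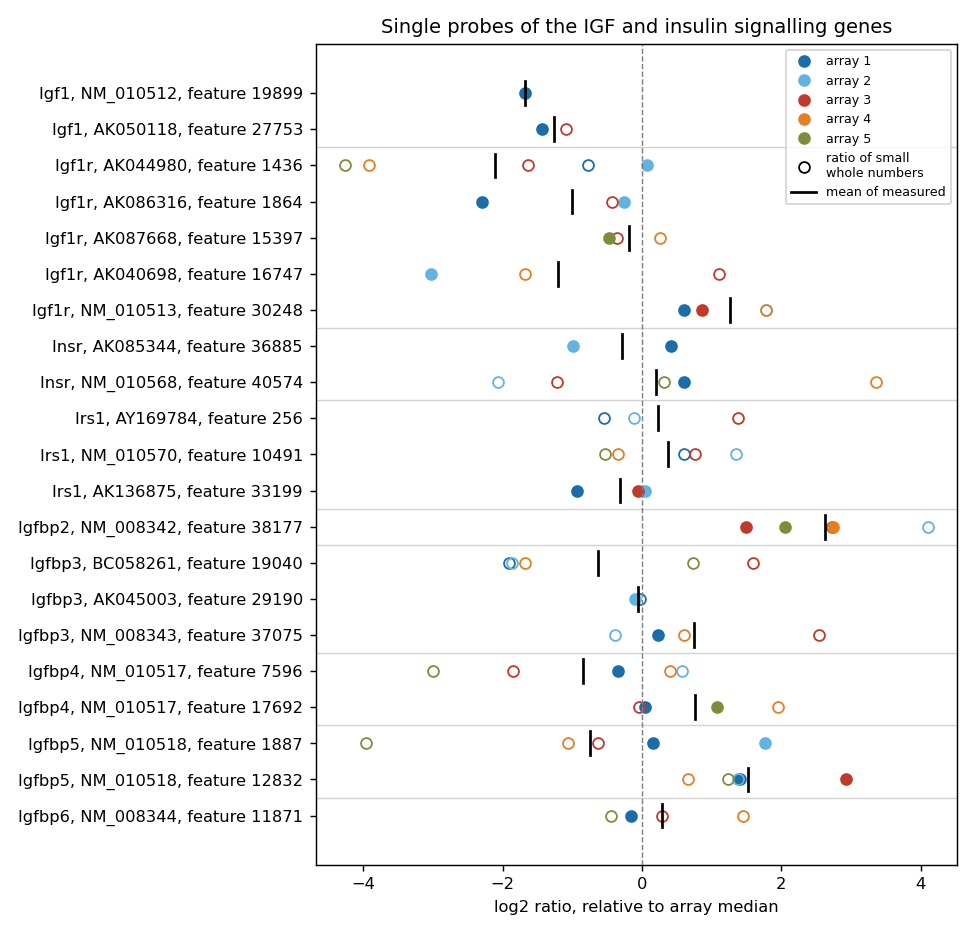
Log2 ratio relative to the array median (x axis) of each of the 21 probes (rows, by gene and target transcript) on the 5 arrays; open points are ratios of whole numbers up to 30 and black bars the mean of the measured arrays. Probe means run from -2.10 (Igf1r, AK044980) to 2.62 (Igfbp2).

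Disagreement between probes was common. Of the 5 genes with at least 2 probes on 3 or more arrays, Igf1r, Irs1, Igfbp3, Igfbp4 and Igfbp5, 5 had probe means of opposite sign, as did 52.9% of 7292 such genes on the arrays. Igf1r entered with 5 probes and Irs1 with 3, and the number of probes was not matched in these comparisons. The range between the lowest and the highest probe mean had a median of 1.60 in the 5 genes, beside 1.11 over all. The ratio of a gene with several probes is therefore an average of unlike values, and Igfbp2, with 1 probe, has no second probe to set beside it.

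Around these genes, 65 others of the pathway were listed by role, of which 60 had a probe and 57 were tested. Of these 3 were higher (5.26%, near the 5.89% of all genes) and 0 lower in limma, and their median log2 ratio was -0.046. At an unadjusted p under 0.05 there were 12 higher and 1 lower, or 22.8%, a share near the 23.8% of all genes. Besides Ins2 the genes that passed were Akt1, the kinase activated through phosphatidylinositol 3-kinase (1 of 10 tested in that list), and Gsk3a, a kinase that Akt inhibits (1 of 5). Akt1 gave 1.60, 2.92, 0.93, 1.13 and 1.38 (mean 1.59 ± 0.79, SD, n = 5; limma adjusted p = 0.047), with both probes above 0 on every array. Gsk3a gave 2.31, 2.76, 1.91 and 1.72 on arrays 1 to 4 (mean 2.17 ± 0.46, SD, n = 4; limma adjusted p = 0.0196). The Akt1 call ended when any 1 array was left out (adjusted p from 0.056 to 0.14) and held in 8 of 24 settings; with robust variance its adjusted p was 0.30. Without array 1 or array 2 the calls of Ins2 (adjusted p = 0.065 and 0.061) and Gsk3a (0.076 and 0.078) ended too. Of all genes 0.27% and 0.32% were called there in turn, beside 7.05% as reported. Ins2, Akt1 and Gsk3a were each highest on array 2, as were Igfbp2, Actb and the median of the ribosomal protein genes.

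None of the other lists held a call. Among 10 receptor adaptors tested the smallest p belonged to Sh2b1, which binds the activated receptor (mean 1.89 on 4 arrays, limma adjusted p = 0.069), and Grb2, which links it to Ras (mean 1.34, 0.071). In the mTOR list of 12, Rheb, the activator of mTOR, averaged 1.37 (limma adjusted p = 0.064). Its inhibitor Tsc1 was at -0.95, -1.18, -0.89, -0.66 and -1.04, below 0 on 5 of 5 arrays with little spread, and did not pass (mean -0.94 ± 0.19, SD, n = 5; limma adjusted p = 0.18). The proteases that act on binding proteins, Pappa (-0.80) and Htra1 (0.59), the receptor inhibitors Socs3 (0.57) and Socs1 (-0.57), the Igf2 mRNA-binding proteins Igf2bp1 (-0.22) and Igf2bp3 (-0.20) and the growth hormone mediators Stat5a (1.12) and Stat5b (-0.60) had mean log2 ratios on both sides of 0.

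The Igfbp2 call moved with the reference level and with single arrays. Igfbp2 passed in 16 of 25 settings, and its mean ran from -0.037 with Actb at 0 to 3.67 with Gapdh at 0. Leaving out array 1 (2.60, limma adjusted p = 0.065) or array 2 (2.25, 0.061) ended the call. Of all genes 0.27% and 0.32% were called there in turn, beside 7.05% as reported, so most calls of the series ended with it. On arrays 1 and 2 alone the mean was 3.42 (0.014) and on arrays 3 to 5 alone 2.09 (0.16), above 0 in both.

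**Figure D4:**
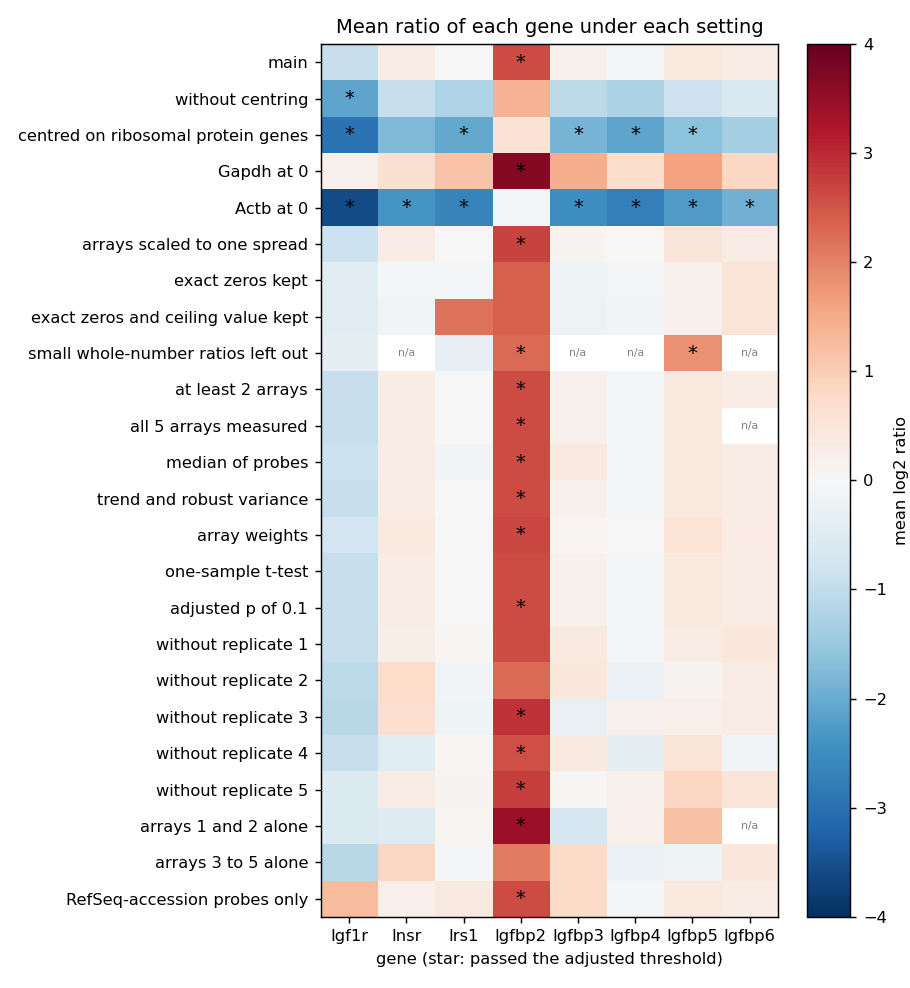
Mean log2 ratio (colour, from blue below 0 to red above 0) of the 8 tested genes (columns) under the values as reported and 23 other settings of the processing (rows); a star marks a value past the threshold of that setting and n/a a gene not tested there. Igfbp2 is above 0 in each of these settings but Actb at 0, where it is -0.037.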

How the data were processed

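Log2 ratios of one channel to the other were deposited to 3 decimals in 1 table, for 44290 features on each of 5 arrays. Image reading, background and normalization are not given in the sources used here, and the base of the logarithm was read from the values. Exact zeros and the ceiling of 16.61 were treated as not measured, each array was centred on its median, and probes of one symbol were averaged; 32042 features had 1 symbol. Genes on at least 3 arrays were fitted with an intercept-only model in limma 3.58.1 (R 4.3.3, eBayes), and Benjamini-Hochberg adjusted p-values were taken over all 28035 genes; the fit was tested on simulated data. Single genes also had an exact two-sided sign-flip permutation test. A small whole-number ratio is one of whole numbers up to 30, within 0.0005. The number of arrays limits the precision; rank correlations between arrays ran from 0.28 to 0.44. Named are all 10 genes and, in each pathway list, up to 4 genes past the threshold or otherwise the 2 with the smallest p, with the 3 nearest profiles of Igf1, Igf1r and Insr, where on all 5 arrays, and Actb and Gapdh. Members, lists and rule were chosen with earlier results of these data known. Alternatives covered reference level, scaling, missing values, probes, variance model, threshold and arrays left out. Promoter stretches were taken from RefSeq (GRCm38.p6), in which 9 of the 10 genes were matched.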

Additional observations from a re-analysis of the deposited data

Results flagged for a closer look

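Among 16 genes with 4 or 5 arrays that were examined for an array far from the others, 1 had one. Grb2, the adaptor that links the receptors to Ras, read 1.64, 1.43, 1.67 and 1.36 on arrays 1 to 4 and 0.61 on array 5. Chance gives such a gap in about 1 of 20 groups.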

How the results depend on the processing

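The reference level moved most results. The median of all genes was -0.14 as reported, -1.52 without centring, -2.23 with arrays centred on ribosomal protein genes, 1.23 with Gapdh at 0 (which drops array 4, where Gapdh was not measured) and -2.90 with Actb at 0. Igfbp2 averaged 1.40 without centring, 0.58 on ribosomal protein genes and -0.037 with Actb at 0. It was 2.40 with exact zeros kept, 2.39 with the ceiling kept too, 2.62 by a one-sample t-test (adjusted p = 0.14) and 2.09 on arrays 3 to 5, and passed in none of these; leaving out 1 array gave 2.25 to 2.90.

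With limma, higher genes numbered 1651 as reported and 63, 39 and 10 without centring, on ribosomal protein genes and with Actb at 0; lower genes numbered 325 and then 8111, 19607 and 24330. Gapdh at 0 gave 2 lower, zeros kept 51 higher and 11 lower, the ceiling kept too 0 and 0 (3740 at an unadjusted p under 0.05), small whole-number ratios left out 2521 and 93 of 5222 tested (50.1% called, against 7.05% as reported), a trend with robust variance 695 and 70, the one-sample t-test 1 and 0 (5295 unadjusted), array weights 505 lower, an adjusted p of 0.1 1023 lower, arrays 1 and 2 alone 210 lower, single probes 511 lower, and arrays 3 to 5 alone 0 and 0 (2722 unadjusted). Leaving out 1 array gave 54 (without array 1) to 1674 higher and 10 (without array 1) to 276 lower.

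Of the 8 genes, the number higher was 0 under each setting that ended the Igfbp2 call, 2 of 4 tested with small ratios left out (Igfbp5 at 1.83 beside Igfbp2; 50.1% of all genes were called there), and 0 to 1 with 1 array left out. With small ratios left out the median of all genes was 1.37. The number lower was 1 without centring, 5 on ribosomal protein genes, 7 with Actb at 0 and 1 among single probes. Of all genes 29.2% were called without centring, 70.1% on ribosomal protein genes and 86.8% with Actb at 0, nearly all lower. Of all single probes 1.32% were lower. Of the other 57 pathway genes, higher calls numbered 0 without centring, on ribosomal protein genes, with Actb at 0, with zeros or the ceiling kept, by the t-test and on arrays 3 to 5. They numbered 1 with robust variance, 5 with Gapdh at 0, with all 5 arrays required and for single probes, 8 with small ratios left out and at 0.1, and 0 to 3 with 1 array left out (0 without array 1 or 2). Of all genes 2.73% were called with robust variance, 7.78% with Gapdh at 0, 18.8% with all 5 arrays required and 12.4% at 0.1. Without array 1 or array 2 the share was 0.27% and 0.32%, and without another array 5.66% to 7.27%. Of all single probes 6.36% were higher. Lower calls among these 57 numbered 8 without centring, 36 on ribosomal protein genes and 46 with Actb at 0. They are to be read beside the shares of all genes given above for the same settings.

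Signs turned as follows. Without centring, on ribosomal protein genes and with Actb at 0, Insr was -0.93, -1.75 and -2.37, Igfbp3 -1.03, -1.86 and -2.48, Igfbp5 -0.83, -1.65 and -2.27, and Igfbp6 -0.61, -1.31 and -1.93. On ribosomal protein genes and with Actb at 0, Igf2 was -0.60 and -1.22 and Akt1 -0.45 and -1.07; with Actb at 0, Ins2 was -0.052 and Gsk3a -0.69. With Gapdh at 0, Igf1r was 0.17, Irs1 1.15 and Igfbp4 0.71. With zeros kept, and with the ceiling kept too, Insr was -0.090 and -0.097 and Igfbp3 -0.20 and -0.20; with the ceiling kept, Irs1 was 2.16. Array weights gave Igfbp4 0.021. RefSeq-accession probes alone, chosen after seeing the data, gave Igf1r 1.26 and Irs1 0.37. On arrays 1 and 2, Insr was -0.51, Irs1 0.068, Igfbp3 -0.67 and Igfbp4 0.21; on arrays 3 to 5, Igfbp5 was -0.14. Leaving out 1 array gave Igf1r -1.11 to -0.54, Insr -0.48 to 0.75, Irs1 -0.18 to 0.12, Igfbp3 -0.29 to 0.43, Igfbp4 -0.37 to 0.16 and Igfbp6 -0.10 to 0.53. The causes were not tested beyond what each setting changes by construction. No paired analysis was possible because the arrays form 1 group, in which each array already sets cocaine beside saline.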
